A study of Mus musculus with 6 samples.

Results

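The genes *Plin2*, *Plin3*, *Plin4*, *Plin5*, *Pnpla2*, *Lipe*, *Mgll*, *G0s2*, *Dgat1* and *Dgat2*, which code for coat proteins of lipid droplets and for enzymes that make or break down triglyceride, were measured in mouse hearts after feeding with a high fat diet (HFD) or a normal diet (ND). Members were the array probes whose gene name in the scanner files is exactly 1 of these 10 names. This gave 13 of the 55681 probes other than controls, and 10 of the 33519 gene names on the array. *Mgll* had 4 probes and each of the other 9 genes had 1. The animals were male C57BL/6 mice that entered feeding at 4 weeks of age and stayed on their diet for 4 months. The HFD group (3 hearts) got 60% of its kcal from fat and the ND group (3 hearts) ate standard chow. The labels of these hearts name no transgene, although transgenic mice were used elsewhere in the study. Each array held the RNA of 1 heart, and the samples differ in nothing else that the labels state. The comparison asks which of these genes differ in the heart after feeding that leads to lipid overload.

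A lipid droplet is a core of triglyceride under a single layer of phospholipid, and perilipins coat its surface and control the access of lipases. The heart takes up far more fatty acid than it keeps, and it passes part of that fatty acid through a small and quickly renewed triglyceride pool before it is oxidised. Triglyceride is built from diacylglycerol by the DGAT enzymes. It is broken down in turn by adipose triglyceride lipase, hormone-sensitive lipase and monoglyceride lipase.

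The sequences below show which stretch of each transcript the array read. They are given 5′ to 3′ as the scanner files hold them, with positions on mm9. The first set is for 4 of the 5 genes with an unadjusted p below 0.05 in the comparison below, whole or as the first 30 bases. The *Dgat2* probe is not printed.

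*Plin2*, chr4:86302847-86302906, minus strand, first 30 of 60 bases: ctggccagatgaccccttttgctgtattga
*Plin3*, chr17:56418429-56418488, minus strand: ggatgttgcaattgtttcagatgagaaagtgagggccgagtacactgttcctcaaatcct
*Lipe*, chr7:26165828-26165887, minus strand: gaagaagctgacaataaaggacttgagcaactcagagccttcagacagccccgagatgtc
*Dgat1*, chr15:76333128-76333274, minus strand: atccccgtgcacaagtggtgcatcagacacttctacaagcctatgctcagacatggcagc

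The 60 bases of the *Dgat1* probe span 147 bases of the genome, so this probe skips 87 genomic bases and reads spliced RNA. The other 12 probes each cover 60 bases of genome without a gap. The next set shows landmarks within the probes, in capitals. The *G0s2* probe (chr1:195098925-195098984, minus strand) holds the letters of a start codon at base 17. For *Plin5* (chr17:56251025-56251084, minus strand), *Pnpla2* (chr7:148645928-148645987, plus strand) and the *Mgll* probe at chr6:88778292-88778351 (plus strand), the capitals mark AATAAA, the usual signal for adding the poly(A) tail, within a window of 30 bases.

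*G0s2*: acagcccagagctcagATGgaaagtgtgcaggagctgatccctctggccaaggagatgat
*Plin5*: tttgtggtcctgAATAAAtatgtttgatgt
*Pnpla2*: caaagcagatctAATAAAagccacagctca
*Mgll*: acagctcaccgtAATAAAaaccacgtgctt

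The *Plin4* probe lies at chr17:56240055-56240114 on the minus strand. *Plin4*, *Plin5* and *Plin3* were thus read from the same strand of 1 chromosome, with 11.0 kb between the probes of *Plin4* and *Plin5* and 167 kb between those of *Plin5* and *Plin3*. The files give no exon or coding annotation for these positions, and no annotation of mm9 was used here. The *Lipe* probe also holds the letters AATAAA, which are not marked, and none of these matches was shown to act as a signal.

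By the array barcodes in the scanner files, a single slide carried all 6 arrays. The second-to-last number of a barcode was read as the row on the slide, which the sample labels do not name. By this reading, HFD 1 and HFD 2 occupied row 1, and the other 4 hearts were in row 2. The scanner software rated 49.2% to 53.0% of the probes of an array as well above background, and no spot was saturated. All 9 cardiomyocyte markers were well above background in every heart, and their mean level stayed between 8.22 and 8.49. White adipocyte markers varied widely among the HFD hearts. Their mean level over 8 genes was −1.11 to −0.29 in the ND hearts, 0.20 in HFD 1, −2.88 in HFD 2 and −0.95 in HFD 3, and *Lep* was well above background on no array. Atrial markers behaved likewise, at −0.40 in HFD 2 against 2.39 to 5.77 in the other 5 hearts. The erythroid markers (4 of 4 measured) averaged 4.26 to 4.95 in the ND hearts and 3.48 to 3.94 in the HFD hearts. The part of these cell types in the differences below was not tested, also where marker levels are given beside a result.

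Levels here are log2 intensities relative to the 75th percentile of the array, so that a level of 0 is the brightness of that percentile and 1 unit is a doubling. They serve to compare hearts for 1 probe and not probes with each other. Of the 13 probes, 12 could be tested, covering all 10 genes, and these 12 were well above background on all 6 arrays. No member passed limma's test after Benjamini-Hochberg adjustment over all 27590 probes tested, where 4 probes (0.0145%) did, and the lowest adjusted p of a member was 0.249. At an unadjusted p below 0.05, the limit that the study's methods give, *Plin2* and *Lipe* were higher in the HFD hearts (2 of 12 probes, against 5.24% of all probes tested). *Plin3*, *Dgat1* and *Dgat2* were lower (3 of 12, against 6.63% of all). These same 5 were the member probes whose 3 HFD hearts lay entirely above (2 of 12, against 7.92% of all) or entirely below (3 of 12, against 11.1%) the 3 ND hearts. The median log2 fold change was 0.04 over the 12 member probes and −0.01 over all probes tested.

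**Figure D1:**
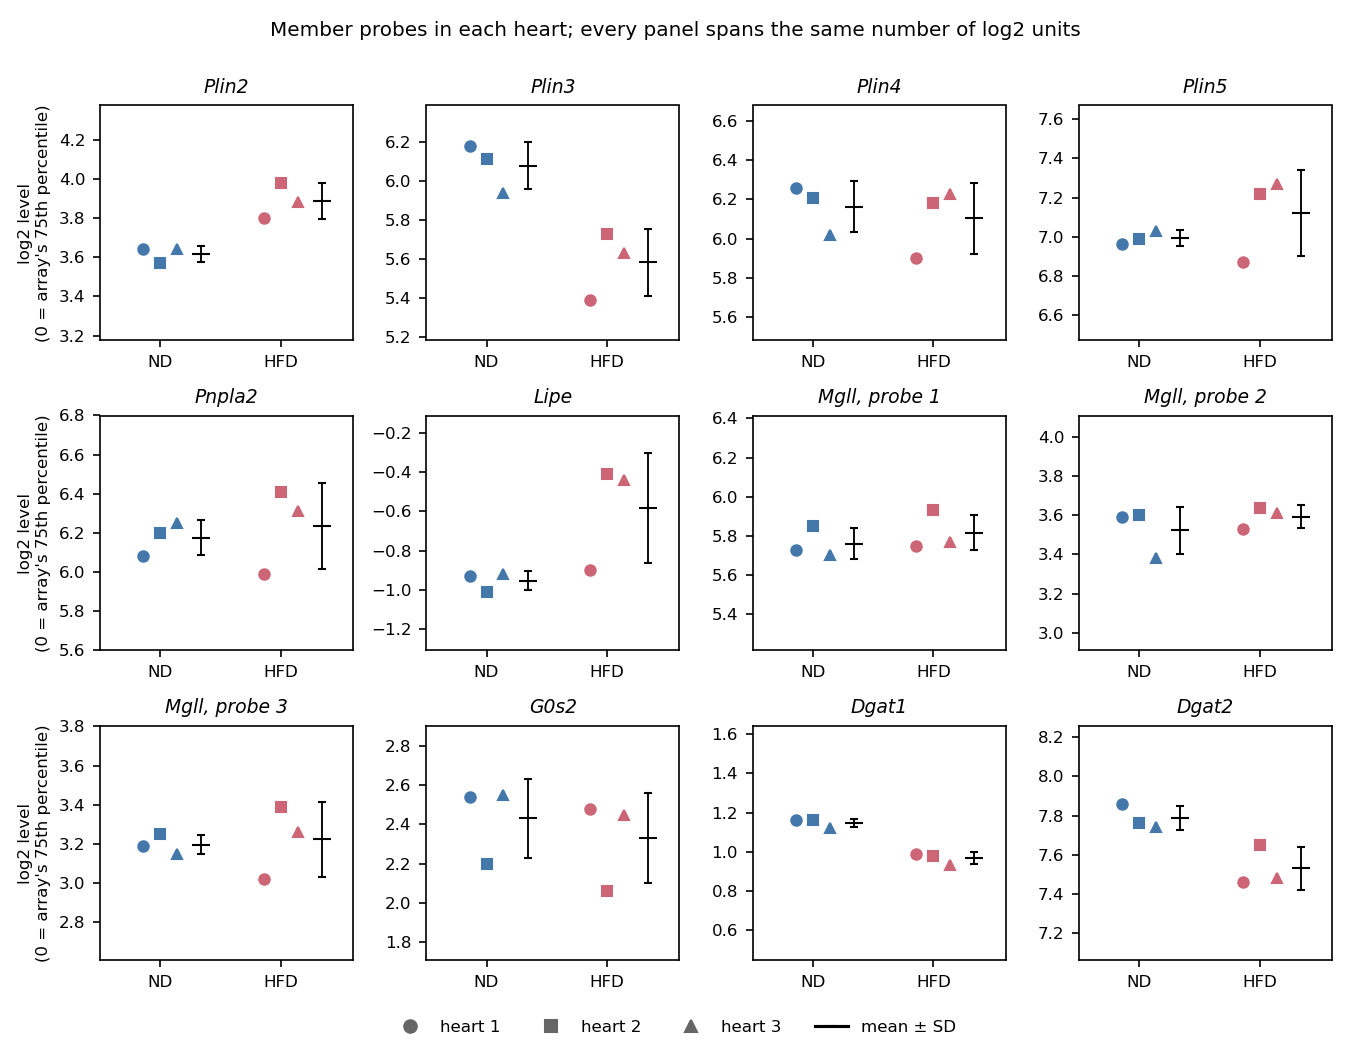
Log2 level of the 12 tested member probes (vertical axis, 0 is the array's 75th percentile) in 3 ND and 3 HFD hearts, with 1 symbol per heart and the mean ± SD of each diet beside it. The diets are separate for Plin2, Plin3, Lipe, Dgat1 and Dgat2, and HFD 1 sits below HFD 2 and HFD 3 for Plin5, Pnpla2 and Lipe.

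Of the perilipin coats, *Plin2* was 1.20-fold higher and *Plin3* was at 71.1% of the ND level, while *Plin4* and *Plin5* overlapped between the diets. *Plin2* codes for perilipin 2, the coat found on droplets of most cells, whose gene is a known target of fatty acid-sensing PPARs. Its level was 3.64, 3.57 and 3.64 across the ND hearts 1 to 3, and 3.80, 3.98 and 3.88 across the HFD hearts 1 to 3, the order used throughout. Every HFD heart lay above every ND heart. The mean was 3.62 ± 0.04 (SD, n = 3) under ND and 3.89 ± 0.09 (SD, n = 3) under HFD. The log2 fold change of *Plin2* was 0.27 (SE 0.08, 95% interval 0.08 to 0.46, adjusted p = 0.292). Without ND 2, the heart with the lowest *Plin2* level, it was 0.24 and no longer below the unadjusted limit. In RNA of a whole heart, a change in the number of cells of a type and a change in RNA per cell cannot be told apart. This holds for every gene here, whether higher or lower.

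*Plin3* codes for perilipin 3, a coat that moves between the cytosol and nascent droplets. Its level was 6.18, 6.11 and 5.94 in the ND hearts and 5.39, 5.73 and 5.63 in the HFD hearts. All 3 HFD hearts were lower than the lowest ND heart, and HFD 1 was lowest. The mean was 6.08 ± 0.12 (SD, n = 3) under ND and 5.58 ± 0.17 (SD, n = 3) under HFD. *Plin3* had the largest decrease of the members, with a log2 fold change of −0.49 (SE 0.12, 95% interval −0.78 to −0.21, adjusted p = 0.249). This change lay at the 2.8th percentile of the log2 fold changes of all probes tested. With each heart left out in turn it stayed between −0.57 and −0.40, and the unadjusted p stayed below 0.05 each time.

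The difference between these coats does not depend on a scale factor shared by a whole array, because both probes are read on the same array. Quantile normalization and background correction are not such a factor and can shift it. Relative to its ND mean, the log2 ratio of *Plin2* to *Plin3* was −0.08, −0.08 and 0.16 in the ND hearts and 0.86, 0.71 and 0.70 in the HFD hearts. It therefore lay 0.76 ± 0.09 (SD, n = 3) above ND in the HFD hearts. The pair was chosen after its values were seen, and the ratio was not tested.

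Perilipin 4, which coats nascent droplets and is abundant in adipocytes and muscle, is encoded by *Plin4*. Its level was 6.26, 6.21 and 6.02 in the ND hearts and 5.90, 6.18 and 6.23 in the HFD hearts. The lowest value was that of HFD 1, and the other 2 HFD hearts lay within the ND range. The difference was −0.06 on the log2 scale (SE 0.12, 95% interval −0.35 to 0.24, adjusted p = 0.890), and it turned to 0.05 without HFD 1. *Plin5* codes for perilipin 5, the coat typical of oxidative tissues, which ties droplets to mitochondria. Its level was 6.96, 6.99 and 7.03 in the ND hearts, 6.87 in HFD 1, 7.22 in HFD 2 and 7.27 in HFD 3. The HFD hearts thus fell on either side of a narrow ND range. *Plin5* thus had a log2 fold change of 0.13 (SE 0.12, 95% interval −0.17 to 0.42, adjusted p = 0.728). Without HFD 1 it was 0.25, below the unadjusted limit, with an adjusted p of 0.332.

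Of the 3 lipases, *Lipe* was higher under HFD, and *Pnpla2* and *Mgll* overlapped between the diets. *Pnpla2* codes for adipose triglyceride lipase, which takes the first fatty acid off triglyceride. Its level was 6.08, 6.20 and 6.25 in the ND hearts, 5.99 in HFD 1, 6.41 in HFD 2 and 6.31 in HFD 3. As for *Plin5*, HFD 1 was the lowest of all 6 hearts and HFD 2 and HFD 3 were the highest. On the log2 scale *Pnpla2* differed by 0.06 (SE 0.13, 95% interval −0.25 to 0.37, adjusted p = 0.888). This was 0.19 without HFD 1 and −0.03 without HFD 2, both with an unadjusted p above 0.05.

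*Lipe*, for hormone-sensitive lipase, which acts mainly on diacylglycerol, was 1.29-fold higher under HFD. Its level was −0.93, −1.01 and −0.92 in the ND hearts, −0.90 in HFD 1, −0.41 in HFD 2 and −0.44 in HFD 3. The diets did not overlap, but HFD 1 exceeded the highest ND heart only slightly, and the difference came from HFD 2 and HFD 3. The mean was −0.95 ± 0.05 (SD, n = 3) under ND and −0.58 ± 0.28 (SD, n = 3) under HFD. This gave a log2 fold change of 0.37 (SE 0.14, 95% interval 0.02 to 0.72, adjusted p = 0.407). Without HFD 1 it was 0.53, with an adjusted p of 0.172. Without any other single heart (ND 1, ND 2, ND 3, HFD 2 or HFD 3) it lay between 0.28 and 0.39, and the unadjusted p rose above 0.05. With all hearts, the methods' t-test gave *Lipe* an unadjusted p of 0.0828. *Lipe* is abundant in adipocytes. HFD 2 had the highest *Lipe* level and the lowest levels of the white adipocyte markers *Adipoq*, *Car3*, *Cfd*, *Cidec*, *Plin1* and *Retn*, at −5.55 to −2.65. Of the 7 markers tested, *Fabp4* alone was highest there, at 7.67 against 7.29 to 7.56 in the other hearts. The part of adipocytes in the *Lipe* difference was not tested.

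*Mgll* codes for monoglyceride lipase, which releases the last fatty acid. Of its 4 probes, 3 were tested. The probe at chr6:88778292-88778351, designed on transcript variant 1, read 5.73, 5.85 and 5.70 in the ND hearts and 5.75, 5.93 and 5.77 in the HFD hearts. The second probe on that variant (chr6:88775976-88776035) had 3.59, 3.60 and 3.38 against 3.53, 3.64 and 3.61. The probe at chr6:88714636-88714695, on variant 4, had 3.19, 3.25 and 3.15 against 3.02, 3.39 and 3.26. For each of them the diets overlapped. The log2 fold changes were 0.06, 0.08 and 0.02 in that order, each with an SE of 0.08 to 0.11 and an adjusted p of 0.784 to 0.953. The widest of the 95% intervals, that of the variant 4 probe, reached from −0.24 to 0.29. The remaining probe of variant 4 (chr6:88716266-88716325) was too dim to rise well above background in any of the 6 hearts.

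*G0s2* codes for the protein inhibitor of adipose triglyceride lipase. Its level was 2.54, 2.20 and 2.55 in the ND hearts and 2.48, 2.06 and 2.45 in the HFD hearts. One heart of each diet stood below the other 2, and the diets overlapped. The difference of *G0s2* was −0.10 on the log2 scale (SE 0.16, 95% interval −0.48 to 0.28, adjusted p = 0.849), which became 0.04 without HFD 2.

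The transcripts of both enzymes that add the last fatty acid to triglyceride were lower under HFD at an unadjusted p below 0.05. *Dgat1* codes for the DGAT that also handles fatty acid taken up from outside the cell. Its level was 1.16, 1.16 and 1.12 in the ND hearts and 0.99, 0.98 and 0.93 in the HFD hearts. The diets were separate, with less spread than for any other member. The mean was 1.15 ± 0.02 (SD, n = 3) under ND and 0.97 ± 0.03 (SD, n = 3) under HFD, or 88.2% of the ND level. Its log2 fold change was −0.18 (SE 0.06, 95% interval −0.33 to −0.03, adjusted p = 0.354). It kept a value of −0.20 to −0.16 with each heart left out, but without ND 1 (−0.17), ND 2 (−0.18) or HFD 3 (−0.16) the unadjusted p was above 0.05.

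*Dgat2* codes for the structurally unrelated DGAT that works with newly made fatty acid. Its level was 7.86, 7.76 and 7.74 in the ND hearts and 7.46, 7.65 and 7.48 in the HFD hearts. Every HFD heart lay below every ND heart. The mean was 7.78 ± 0.06 (SD, n = 3) under ND and 7.53 ± 0.11 (SD, n = 3) under HFD, or 83.9% of the ND level. For *Dgat2* the log2 fold change was −0.25 (SE 0.08, 95% interval −0.45 to −0.05, adjusted p = 0.337). With each heart left out it was −0.31 to −0.22, and without ND 1 (−0.22), ND 2 (−0.27), HFD 1 (−0.22) or HFD 3 (−0.23) the unadjusted p was above 0.05.

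**Figure D2:**
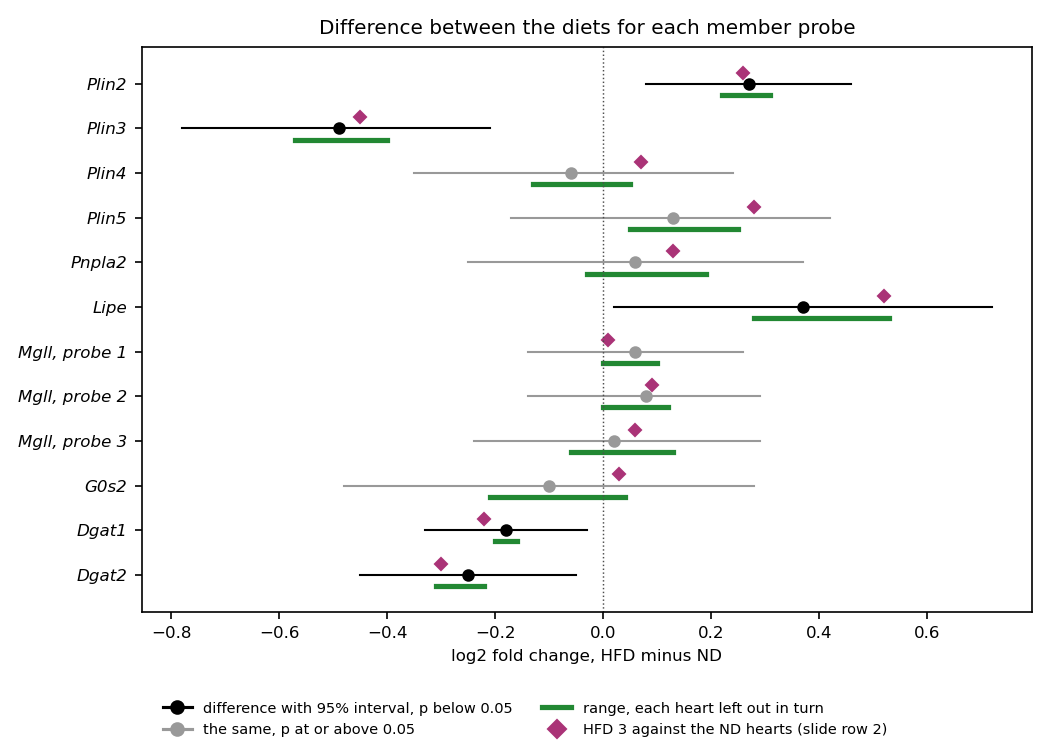
Log2 fold change of HFD minus ND (horizontal axis) for the 12 tested member probes. Points and thin lines are the difference with its 95% interval, in black where the unadjusted p was below 0.05, thick lines give the range with each heart left out in turn, and diamonds compare HFD 3 with the ND hearts of the same slide row. The intervals of Plin2 and Lipe lie above 0, those of Plin3, Dgat1 and Dgat2 lie below 0, and those of the other 7 probes include 0.

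Position on the slide, as read from the barcodes, may bear on all of these values, because row 1 held HFD hearts alone. With the row as a term in the fit, the difference rests on HFD 3 against the ND hearts in row 2. The log2 fold changes were then 0.26 for *Plin2*, −0.45 for *Plin3*, 0.52 for *Lipe*, −0.22 for *Dgat1* and −0.30 for *Dgat2*. Their directions were the same, but 0 of the 12 member probes had an unadjusted p below 0.05 (the adjusted p of these 5 lay between 0.651 and 0.708). In a fit of the 4 arrays of row 2 alone, where the single HFD heart is assumed to vary like the ND hearts, *Plin2*, *Plin3*, *Plin5*, *Lipe* and *Dgat2* had an unadjusted p below 0.05, and *Dgat1* did not. The adjusted p of these 6 lay between 0.372 and 0.538. This fit was chosen after the positions were seen.

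HFD 1 had the lowest level of the 3 HFD hearts for 10 of the 12 member probes, against 44.7% of all probes tested. HFD 2 had the highest level for 8 of the 12, against 48.7% of all. The exceptions to the first count were *G0s2* and *Dgat1*. HFD 1 and HFD 2 shared a slide row, and they also stood at opposite ends of the white adipocyte and atrial marker levels given above. Whether these go together was not tested.

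The gene whose values ran most like those of *Plin3*, the member with the lowest p, was *Pla2g12a*, with a Pearson's r of 0.999 over the 6 hearts. *Ikbkap* (0.997), *Klk1b26* (0.997), *Tmem120a* (0.996) and *Abcg2* (0.996) came next. The search ran over 25923 other probes that passed the background test in every heart, and probes without a gene symbol were passed over. Each r is taken over only 6 points in 2 diets that are separate for *Plin3*, and so the high values describe this ranking and nothing more.

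The wider pathway was followed in a list of 32 further genes, of which 29 were tested with 1 probe each. At an unadjusted p below 0.05, 5 were higher (against 5.24% of all probes tested) and 6 were lower (against 6.63%) under HFD, 0 of the 29 passed the adjustment in limma, and the median log2 fold change was −0.02 against −0.01 over all probes. The first steps of glycerolipid synthesis were split. *Gpam*, the mitochondrial glycerol-3-phosphate acyltransferase, had levels of 0.80, 0.76 and 0.75 in the ND hearts and 0.98, 1.43 and 1.37 in the HFD hearts. It was higher by 0.49 on the log2 scale (SE 0.13, 95% interval 0.17 to 0.81, adjusted p = 0.274). The diets were separate, and HFD 1 was again the HFD heart nearest to ND. *Gpat3*, named *Agpat9* on the array and acting in the same step at the endoplasmic reticulum, was higher by 0.38 (SE 0.10, adjusted p = 0.271). Among the acyltransferases named for the second step, *Agpat3* was higher by 0.27, whereas *Agpat1* and *Agpat5* had log2 fold changes of −0.21 and −0.19.

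The lipins, phosphatidic acid phosphatases that make the diacylglycerol used by the DGATs, included the gene of the list with the lowest p. *Lpin1* had levels of 3.82, 3.64 and 3.70 in the ND hearts and 3.33, 3.25 and 3.20 in the HFD hearts. All HFD hearts were lower by a margin larger than the spread within either diet. *Lpin1* differed by −0.46 on the log2 scale (SE 0.08, 95% interval −0.65 to −0.27, adjusted p = 0.149). *Lpin3* had −0.43 (SE 0.11, adjusted p = 0.265). In all, 3 of 11 synthesis genes tested were higher (against 5.24% of all probes tested) and 4 were lower (against 6.63%) at an unadjusted p below 0.05.

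Of 10 further droplet proteins, *Cidea*, which promotes droplet fusion, was higher by 0.33 (SE 0.09, adjusted p = 0.289). *Fitm1*, a muscle protein of droplet formation, and *Cideb*, a relative of *Cidea*, had log2 fold changes of −0.20 (adjusted p = 0.323) and −0.68 (adjusted p = 0.317). *Hilpda*, under the name 2310016C08Rik on the array, codes for another inhibitor of adipose triglyceride lipase, and its difference was −0.18 (SE 0.09, adjusted p = 0.521). The adipocyte coat *Plin1* had levels of −3.91, −3.61 and −3.51 in the ND hearts and −1.89, −5.55 and −3.03 in the HFD hearts. For *Cidec*, the other adipocyte droplet protein, they were −1.49, −0.47 and −0.38 against −0.04, −4.19 and −1.19. Both varied by more between HFD 1 and HFD 2 than any member did, and their log2 fold changes of 0.19 (SE 0.89) and −1.02 (SE 1.05) had an adjusted p of 0.955 and 0.751.

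Of 8 further lipolysis genes, *Ces1d*, a carboxylesterase that hydrolyses triglyceride, was higher by 0.34 (SE 0.09, adjusted p = 0.284). The other 7 had an unadjusted p above 0.05. They include *Abhd5*, the activator of adipose triglyceride lipase, at −0.04 (SE 0.09, 95% interval −0.26 to 0.18, adjusted p = 0.888).

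**Figure D3:**
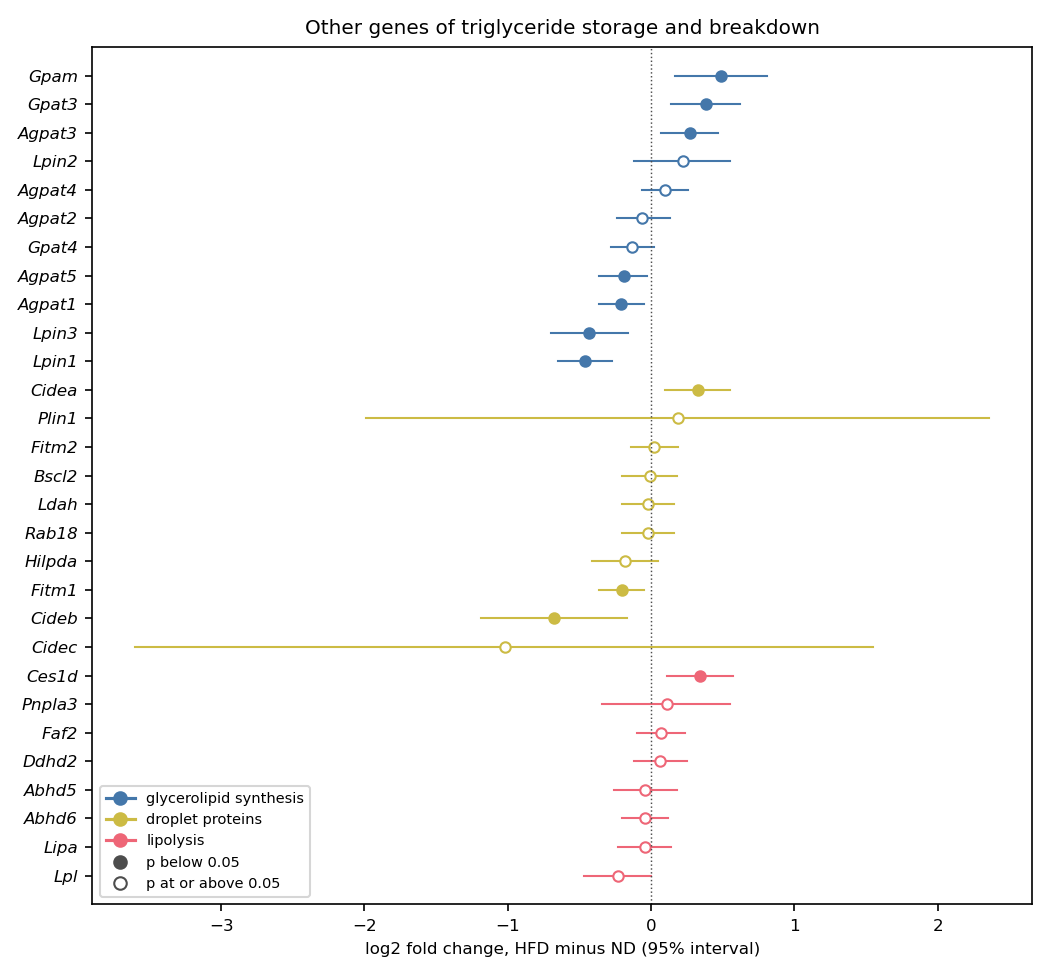
Log2 fold change of HFD minus ND (horizontal axis) with its 95% interval for 29 other genes of triglyceride storage and breakdown, coloured by role and filled where the unadjusted p was below 0.05. Gpam, Gpat3, Agpat3, Cidea and Ces1d lie to the right of 0, Lpin1, Lpin3, Agpat1, Agpat5, Fitm1 and Cideb lie to the left, and Plin1 and Cidec have the widest intervals.

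**Figure D4:**
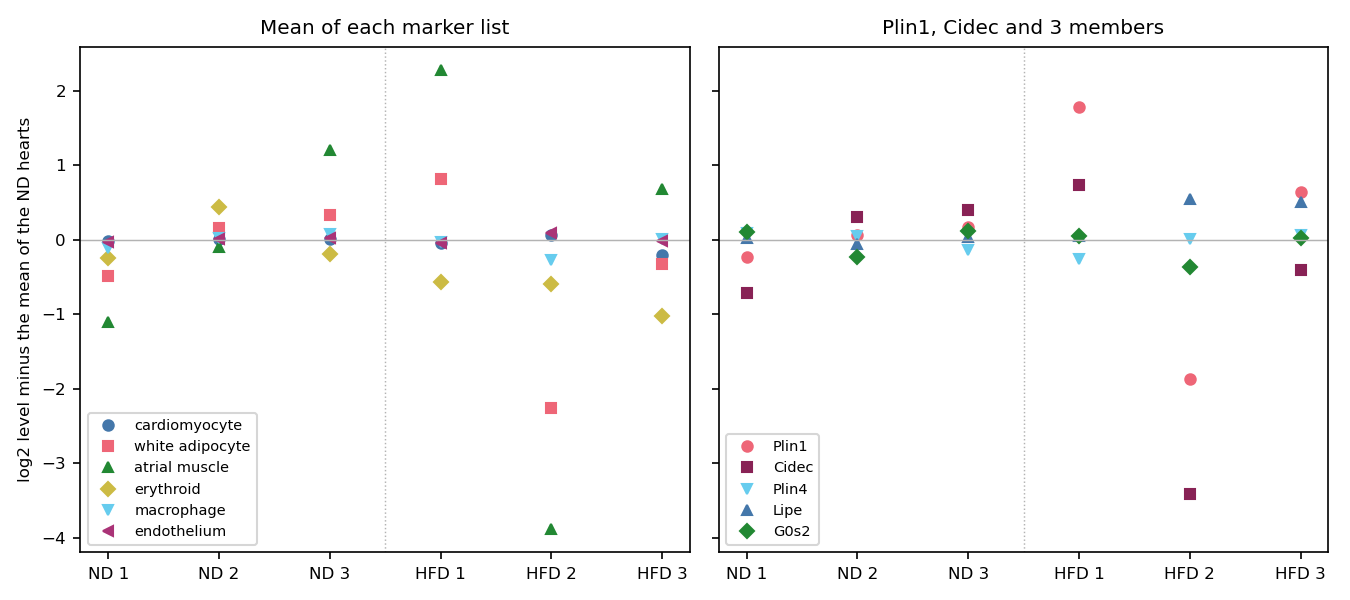
Difference from the mean of the ND hearts on the log2 scale (vertical axis) in each of the 6 hearts, for the mean of each marker list (left) and for Plin1, Cidec and the members Plin4, Lipe and G0s2 (right). White adipocyte and atrial markers are lowest in HFD 2. Plin1 and Cidec, which belong to the white adipocyte list, are lowest there, while Lipe is highest in HFD 2 and HFD 3.

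A list of 20 known targets of PPARs served as the setting for *Plin2*. Of the 20, 19 had a higher mean under HFD, as had 13256 of all 27590 probes tested. Of the 20, 10 were higher at an unadjusted p below 0.05, against 5.24% of all probes tested. In limma 0 of the 20 passed the adjustment, and the median log2 fold change was 0.31, against −0.01 over all probes. Among those with the lowest p were *Acot2*, a mitochondrial acyl-CoA thioesterase, at 1.11 (SE 0.17, adjusted p = 0.129), and *Slc25a20*, the carnitine-acylcarnitine carrier, at 0.44 (SE 0.07, adjusted p = 0.149). The 0.27 of *Plin2* lay just below the median of this list. Of the members, only *Plin2* was set beside the list, and the part of PPARs in the difference of any member was not tested.

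Promoters were compared for the coats, since *Plin2* and *Plin3* differed in opposite directions. RefSeq promoters (GRCm38.p6) were at hand for 8 of the 10 genes, in 11 entries, and the 250 bases before each start were searched on both strands. A gene was counted if any of its entries held the motif. The shares over all promoters count each entry, so they have another base than the gene counts. CCAAT occurred for all 4 perilipins and for 0 of the 4 other genes, and in 33.8% of all 32851 promoters. AGGTCA, the half-site of nuclear receptors, occurred for *Plin2* and *Plin5*, and in 14.0% of all promoters. The full repeat AGGTCANAGGTCA, the ideal site of PPARs, occurred for 0 of the 8 genes and in 0.0335% of all promoters. GGGCGG, the GC box, occurred for *Plin3*, *Plin5*, *Pnpla2*, *Lipe*, *Mgll* and *G0s2*, and in 32.7% of all promoters. CACGTG, the E-box, occurred for *Lipe* and *Mgll*, and in 6.02% of all promoters. The motifs were chosen with the results known, and a match is a run of letters and not a shown binding site. The promoters of *Plin2* (chr4:86670060-86670309, minus strand) and *Plin3* (chr17:56290512-56290761, minus strand) follow, with the CCAAT boxes, nuclear receptor half-sites and GC boxes of either strand in capitals.

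*Plin2*: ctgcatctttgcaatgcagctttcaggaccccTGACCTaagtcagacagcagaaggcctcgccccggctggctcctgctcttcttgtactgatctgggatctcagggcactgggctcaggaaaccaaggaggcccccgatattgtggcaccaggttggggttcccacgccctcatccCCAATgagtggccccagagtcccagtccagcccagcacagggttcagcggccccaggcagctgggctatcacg
*Plin3*: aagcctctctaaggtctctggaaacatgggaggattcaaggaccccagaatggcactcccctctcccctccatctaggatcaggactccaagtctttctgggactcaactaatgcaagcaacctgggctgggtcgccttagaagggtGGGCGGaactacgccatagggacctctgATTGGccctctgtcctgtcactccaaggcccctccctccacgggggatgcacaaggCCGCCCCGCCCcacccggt

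The *Plin2* promoter held 1 AGGTCA and 1 CCAAT and no GC box. That of *Plin3* held 1 CCAAT and no AGGTCA, and it had 3 matches to the GC box, of which 2 overlapped by 1 base.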

How the data were processed

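RNA from 3 ND- and 3 HFD-fed mouse hearts was hybridised to Agilent 1-colour (Cy3) arrays, 1 heart per array. The authors' deposited scanner files hold background-subtracted intensities that were not normalized between arrays (Agilent Feature Extraction 10.7, per the submitters' processing notes). They also hold the spot and local background intensity, used in an alternative. The log2 values of a second deposited table cover the same arrays, and how they were made is not given in the sources used here. Each of its columns followed its own array (Spearman's rho 1, at most 0.954 with another array), its column medians were all 4.55, and its median difference from quantile-normalized log2 intensities was −0.00188 to 0.00064 in a column, so its scale is log2 and it is not centred by gene.

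Control spots were left out, as were the 127 to 190 spots that the software flagged as outliers on an array, and log2 intensities were taken relative to the 75th percentile of the array over all spots other than controls (453 to 544). A probe was tested (27590 of 55681) if it was well above background in all 3 hearts of either diet and measured in at least 2 of each. Diets were compared by two-sided tests from lmFit and eBayes (limma 3.58.1, Benjamini-Hochberg adjustment) in R 4.3.3 with data.table (1.17.8), jsonlite (2.0.0) and statmod (1.5.0). Figures were drawn with matplotlib 3.10.9 in Python 3.11.15. Simulated data served to test the code. Precision is limited by the 3 arrays per diet. The labels do not say that samples are more than separate hearts. The limma p-values weigh a difference against the spread of a probe between these hearts, drawn toward the spread typical of all probes tested. The methods' t-test uses the spread of the probe alone. No pair of arrays was a duplicate.

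Probes of 1 gene were kept apart, and for the lists the probe with the highest mean level was used. The genes, lists, motifs and tests were chosen with earlier results of these data known. Named are every member, the pathway genes at an unadjusted p below 0.05 and, whatever their value, *Abhd5*, *Plin1*, *Cidec*, *Hilpda*, *Gpam* and *Lpin1*, the 3 PPAR targets of lowest p (1 of them is not reported here), and the 5 genes most like the member of lowest p. Marker lists were those of cardiomyocytes, white adipocytes, atrial muscle and erythroid cells, and those of brown adipocytes, skeletal muscle, macrophages and endothelium, for which the mean levels are in the closing section.

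Alternatives were quantile normalization, normexp correction with an offset of 50, other filters on dim probes, the deposited log2 values, the methods' t-test, a variance trend, array weights, a replicate block, the slide row, outlier spots kept, each heart left out, averaged probes of a gene and, chosen after the data were seen, row 2 alone.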

Additional observations from a re-analysis of the deposited data

How the results depend on the processing

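Directions of the 5 member genes with an unadjusted p below 0.05 held in every alternative run, and no member passed the adjustment in any of them. Of 12 member probes, 5 had a p below 0.05 in the fit reported, 3 without a filter on dim probes (55681 probes tested) and 0 in a fit that includes the slide row. Hearts were treated as unpaired, and the deviations of same-numbered hearts from their diet means correlated at −0.15, 0.15 and 0.19. With 3 hearts per diet, these values cannot show whether same-numbered hearts were handled together. With the replicate block there were 2 member probes, 7 of 29 pathway genes and 0 adjusted calls over all probes. Against 4 adjusted calls over all probes in the fit reported, there were 40 with normexp, 0 without a filter, 2 in the authors' log2 table, 8 with the methods' t-test, 81 with an intensity trend and robust variances, 7 with array weights, and 0 with the slide row as a term or in row 2 alone. In the slide row fit, 2134 probes had an unadjusted p below 0.05 (3275 in the fit reported), and 5 of 29 pathway genes did (11 in the fit reported). With each heart left out, the counts were 0 to 2 adjusted calls, 2156 to 3490 probes at an unadjusted p below 0.05, 1 to 5 member probes and 8 to 12 pathway genes, with 1 member probe without ND 2 and 2 without ND 1 or HFD 3. The methods' t-test gave 3145 probes and 4 member probes at its threshold (*Lipe* did not pass), and 8 and 0 after Benjamini-Hochberg adjustment. The log2 fold change reversed for *Plin4* (0.07 with the slide row and in row 2 alone, and −0.13 to 0.05 with each heart left out), *G0s2* (0.03 and 0.03 there, −0.21 to 0.04 with each heart left out), and with HFD 2 left out for *Pnpla2* (range −0.03 to 0.19) and the *Mgll* probe of variant 4 (range −0.06 to 0.13). The cause of these shifts was not tested. The mean of the 3 *Mgll* probes gave no call either. The 12 tested member probes were well above background in all hearts, and the fourth *Mgll* probe was too dim to test.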

Other observations

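The remaining marker lists gave these mean log2 levels. Macrophage markers (5 of 5 well above background in all hearts) averaged 0.80, 0.93 and 0.99 in the ND hearts and 0.87, 0.64 and 0.92 in the HFD hearts. Endothelial markers (4 of 4) stayed between 2.26 and 2.40. Of 3 brown adipocyte markers only *Cidea* was well above background in all hearts. The list's mean was −0.63 in HFD 1 and −2.84 to −2.60 in the other 5 hearts. Of 6 skeletal muscle markers 1 was well above background in all hearts, and the list averaged −6.35 to −5.01.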
